A study of Mus musculus with 9 samples.

Results

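A set of 10 genes whose products limit retroelement, viral or self nucleic acids was followed across cells with defects in the H3K9 KMT enzymes, which place methyl groups on lysine 9 of histone H3. The genes are Trex1, Samhd1, Rnaseh2a, Rnaseh2b, Rnaseh2c, Adar, Apobec3, Mov10, Zc3hav1 and Bst2. Their rows were found by matching the Ensembl identifiers of the count table to gene symbols, without use of any expression value. The set itself, however, was chosen with earlier results of these data known. All 10 symbols matched, out of 47937 genes in the table. Of these, 9 genes passed the filter on low counts and were tested among 15540 genes, and Trex1 did not. Total RNA of mouse embryonic fibroblasts (MEF cells) had been sequenced from 3 WT, 3 S1S2 and 3 G9Gl cultures.

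WT cells are the parental MEF line of the study, which carries a tamoxifen-inducible conditional Eset1 allele. S1S2 cells carry frameshift mutations in Suv39h1 and Suv39h2, and G9Gl cells carry them in G9a and Glp (gene symbols Ehmt2 and Ehmt1). Both mutants were made in the parental line with CRISPR/Cas9, so all 3 groups share the conditional Eset1 allele, and no treatment with tamoxifen is given in their labels. Each mutant is 1 clone, selected by western blot for loss of the target proteins, and its 3 libraries are taken as cultures of that clone. The study's methods add that, once genes were disrupted, inducible Cre with a puromycin resistance gene was put into the cells again. The lines were then kept in puromycin, and the labels do not say which of the 3 groups this covers. Genotype and clone, and any such difference between the lines, cannot be told apart in any comparison below. No other batch is named in the labels.

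The libraries held between 21319778 and 32157623 gene counts. Expression is given as CPM, read counts scaled to library size and corrected for composition with the TMM method of edgeR. A fold change is log2, with a standard error (SE) from the spread between libraries and a Benjamini-Hochberg adjusted p from the quasi-likelihood test of edgeR over all tested genes. A gene is called when the adjusted p is at most 0.01 and the fold change at least 2, and "rose" or "fell" is used where the adjusted p alone is within this limit. The targeted transcripts were still present, as frameshift alleles allow. Suv39h1 was at 41.9 CPM in S1S2 against 108 in WT, Suv39h2 at 55.2 against 33.9, Ehmt2 at 54.3 in G9Gl against 125 in WT, and Ehmt1 at 50.2 against 104. The sums of 8 fibroblast markers, which include collagen genes and Vim, were between 9795 and 11294 CPM in WT, between 7369 and 7430 in S1S2 and between 7718 and 8573 in G9Gl. Single markers went different ways. Col1a2 had mean levels of 2395 CPM in WT, 395 in S1S2 and 2030 in G9Gl, Col3a1 had 1527, 190.1 and 844, Vim had 1458, 2399 and 1250, and Thy1 had 4.98, 2.05 and 38.3. Of other cell types, 8 macrophage markers summed to at most 5.30 CPM in any library, and all 6 lymphocyte markers, among them Cd3e, stayed at or under 3 counts. The sum of 5 epithelial markers was between 0.298 and 0.548 CPM in WT, between 4.70 and 5.60 in S1S2, where Krt8 made up most of it, and between 4.21 and 5.39 in G9Gl, where Krt14 did. The sum of 5 endothelial markers was at most 0.193 CPM in WT, 1.75 in S1S2 and 2.35 in G9Gl. The part of such differences in the results below was not tested. In such bulk samples fewer cells of a type and less RNA per cell cannot be told apart.

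The 10 genes act at different steps of the handling of nucleic acids. Trex1, Samhd1, the RNase H2 subunits and Adar remove or mask self DNA and RNA, and mutations of their human counterparts cause Aicardi-Goutières syndrome, an inflammatory disease with a constant type I interferon response. Apobec3, Mov10, Zc3hav1 and Bst2 are restriction factors that act on retroviral or retroelement genomes, on foreign RNA or on budding particles, and several of them are known to respond to interferon. H3K9 methylation is itself a mark that keeps many retroelements silent.

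Apobec3 and Bst2 were the genes that moved most between the MEF lines, and Adar came next. The windows around their start sites are therefore shown first, from RefSeq on GRCm38.p6. Each holds 250 bases before and 50 bases after an annotated start. Capitals mark matches to 2 short motifs that were searched on both strands. For Apobec3 and Adar, which have several starts, only the window with a match is shown. The core of the interferon-stimulated response element (ISRE), GAAANNGAAA, or TTTCNNTTTC on the other strand, is found in 3.44% of all 32851 windows and in 3.99% of 27025 genes. The core of the gamma-activated site (GAS), TTCNNNGAA, which reads the same on both strands, is found in 8.30% of windows and 9.55% of genes.
Bst2, minus strand, chr8:71537423-71537722: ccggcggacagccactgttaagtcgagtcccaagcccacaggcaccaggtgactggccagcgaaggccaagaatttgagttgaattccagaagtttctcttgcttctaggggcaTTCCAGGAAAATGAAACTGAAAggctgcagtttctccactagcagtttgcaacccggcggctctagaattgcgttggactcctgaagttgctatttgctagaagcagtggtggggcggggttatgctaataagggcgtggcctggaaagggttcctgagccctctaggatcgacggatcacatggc
Apobec3 (first start), plus strand, chr15:79892158-79892457: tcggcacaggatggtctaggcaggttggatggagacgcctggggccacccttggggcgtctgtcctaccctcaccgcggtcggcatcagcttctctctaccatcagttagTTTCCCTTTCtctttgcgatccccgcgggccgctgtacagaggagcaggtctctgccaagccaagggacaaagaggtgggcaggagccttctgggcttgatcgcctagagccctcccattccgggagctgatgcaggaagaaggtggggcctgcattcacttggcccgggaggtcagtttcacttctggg
Adar (start 3 of 3), plus strand, chr3:89730468-89730767: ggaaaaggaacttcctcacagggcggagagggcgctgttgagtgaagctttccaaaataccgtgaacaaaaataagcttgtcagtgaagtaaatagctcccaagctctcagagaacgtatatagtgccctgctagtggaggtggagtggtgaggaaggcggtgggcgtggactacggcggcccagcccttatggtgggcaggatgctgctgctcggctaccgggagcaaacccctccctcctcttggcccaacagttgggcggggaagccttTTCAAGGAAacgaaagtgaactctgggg
The Bst2 window holds 2 ISRE cores that overlap each other, from base -130 to -121 and from base -124 to -115 relative to the start, and a GAS core from -136 to -128 that overlaps the first of them. In the Apobec3 window shown, an ISRE core lies on the opposite strand, from base -140 to -131. The window of the second Apobec3 start holds neither motif. The window of the Adar start shown holds a GAS core from base 23 to 31 after the start, and the windows of the other 2 Adar starts hold neither motif.

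Of the 10 genes, 9 had a window, 14 in all, and Rnaseh2b had none in the table used. Bst2 and Apobec3 were the 2 genes with an ISRE core. A GAS core was found in 4 genes, Bst2, Adar, Samhd1 and Rnaseh2a. No match in such a window says only that these letters are not in it. For reference, an ISRE core was found in 6 of the 15 genes with a window among 22 interferon signature genes (40.0%), in 7 of 13 other restriction factors (53.8%), in 2 of 8 sensors and adaptors (25%), and in 1 of 17 other nucleases and clearance genes (5.88%). A match is a description of the letters, not of a bound site.

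Against WT, S1S2 cells had 1 called gene among the 9 tested, Apobec3, which was lower. Over all genes tested, 4.66% were called higher and 4.34% lower in this comparison. By adjusted p alone 3 of the 9 rose, namely Mov10, Zc3hav1 and Bst2, and 1 fell, with 20.3% of all genes higher and 17.6% lower. The S1S2 and WT libraries did not overlap for 5 of the 9 genes, against 56.0% of all genes. The median log2 fold change of the 9 genes was 0.08, and that of all genes -0.003.

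In G9Gl cells 2 genes were called higher than in WT, Apobec3 and Bst2, and none lower. The background was 6.77% of all genes called higher and 3.40% called lower. By adjusted p alone 6 of the 9 rose and 1 fell, against 19.0% and 16.0% of all genes. The 6 were Samhd1, Adar, Apobec3, Mov10, Zc3hav1 and Bst2, and the gene that fell was Rnaseh2c. The libraries of G9Gl and WT did not overlap for 8 of the 9 genes, against 52.8% of all genes, and the median log2 fold change was 0.28 against -0.007.

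In the direct comparison Apobec3 was called higher in G9Gl than in S1S2 and no gene was called lower, beside 7.97% and 5.08% of all genes. By adjusted p alone 4 of the 9 were higher in G9Gl, namely Samhd1, Adar, Apobec3 and Bst2, and 2 were lower, Rnaseh2c and Mov10, with 21.6% and 21.1% of all genes. No overlap was seen for 6 of the 9, against 60.8% of all genes. The 3 comparisons share libraries and are not independent of each other.

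**Figure D1:**
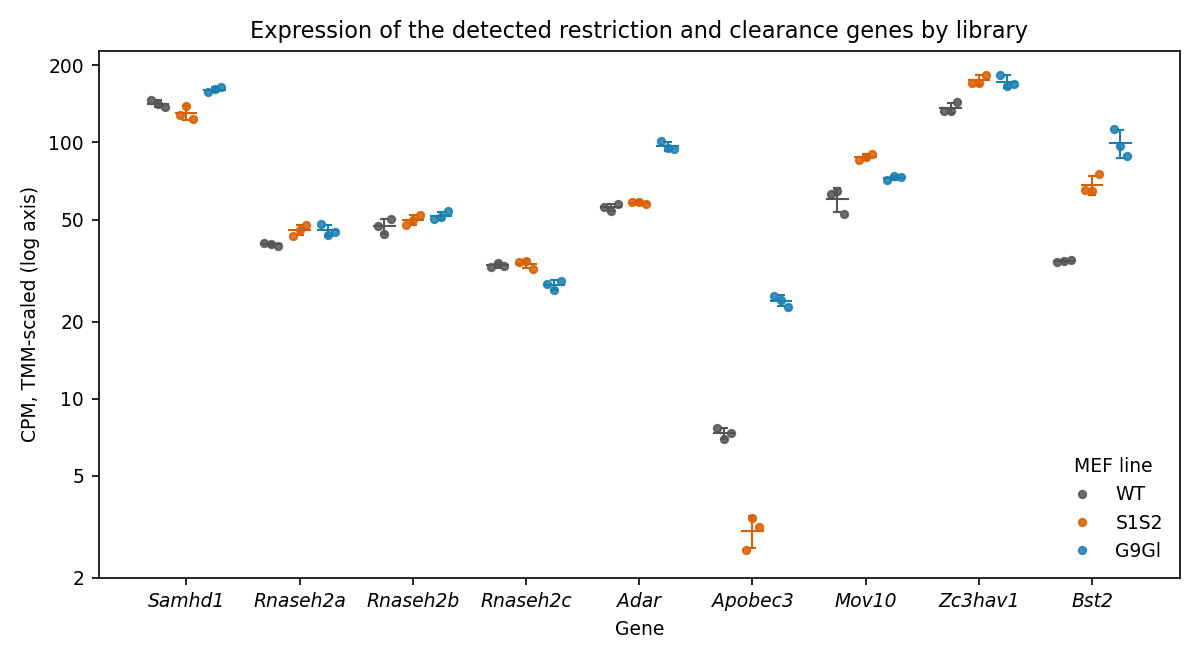
Expression of the 9 detected genes in each library, as TMM-scaled CPM on a log axis. Points are libraries, the short horizontal lines are means and the bars are SD of 3 libraries of WT (grey), S1S2 (orange) and G9Gl (blue). The 3 Apobec3 groups are far apart, with S1S2 lowest and G9Gl highest, whereas the 3 groups of Rnaseh2b overlap.

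Apobec3 encodes the single mouse member of a family of cytidine deaminases that edit retroviral DNA and hinder reverse transcription. It lies on chromosome 15 from base 79891659 to 79915906 on the plus strand of GRCm38. The WT libraries had 7.69, 6.98 and 7.35 CPM. The S1S2 libraries had 2.57, 3.43 and 3.15 CPM, from 56, 94 and 67 counts. The G9Gl libraries had 25.2, 24.3 and 22.9 CPM. All S1S2 libraries were thus below, and all G9Gl libraries above, every WT library.

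The mean Apobec3 level was 7.34 ± 0.358 CPM (SD, n = 3) in WT, 3.05 ± 0.435 in S1S2 and 24.1 ± 1.19 in G9Gl. The log2 fold change against WT was -1.26 (SE 0.13, adjusted p = 1.033e-07) in S1S2, a level 2.39-fold lower. In G9Gl cells it was 1.72 (SE 0.06, adjusted p = 3.401e-11), a level 3.29-fold higher. The mutants therefore differed from WT in opposite directions, and between them the difference was 7.85-fold (log2 2.97, SE 0.13, adjusted p = 1.448e-13). Leaving out any 1 library gave values between -1.36 and -1.15 for S1S2 and between 1.68 and 1.76 for G9Gl, and both calls held.

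The opposite strand of the Apobec3 locus carries Cbx7, a Polycomb subunit gene, whose exons overlap those of Apobec3 by 100 bases (1.06% of the exon bases of Apobec3). Whether strand was used in counting is not stated, so reads in this stretch cannot be assigned with certainty. On the same strand, D730005E14Rik covers 7.15% of the exon bases of Apobec3, and it is not in the table used here. Cbx7 moved the other way. Its counts were 20, 15 and 7 in WT, 68, 71 and 57 in S1S2, and 4, 2 and 0 in G9Gl. The log2 fold change of Cbx7 was 2.63 (SE 0.37, adjusted p = 2.541e-06) in S1S2 and -2.62 (SE 0.59, adjusted p = 0.00192) in G9Gl.

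Of the genes with any part within 100 kb of the ends of Apobec3, a window set after the values of Cbx7 had been seen, 4 were tested. Pdgfb, a growth factor gene, was called higher in S1S2 (log2 1.65, SE 0.07, adjusted p = 5.604e-10). In G9Gl cells Pdgfb rose by 0.72 (SE 0.15, adjusted p = 2.321e-05), which is under the fold limit. Nptxr had a log2 fold change of 0.003 in S1S2 and 0.54 in G9Gl, and Cbx6, a further Polycomb subunit gene, had -0.30 and -0.01. Of the 4 neighbours, 2 were called higher and none lower in S1S2, beside 4.66% and 4.34% of all genes. In G9Gl none was called higher and 1 lower (Cbx7), beside 6.77% and 3.40%. None of the 4 fell in S1S2 and rose in G9Gl by adjusted p, as Apobec3 did. Of all genes 17.6% fell in S1S2 and 19.0% rose in G9Gl, so 0 of 4 does not set Apobec3 apart.

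**Figure D2:**
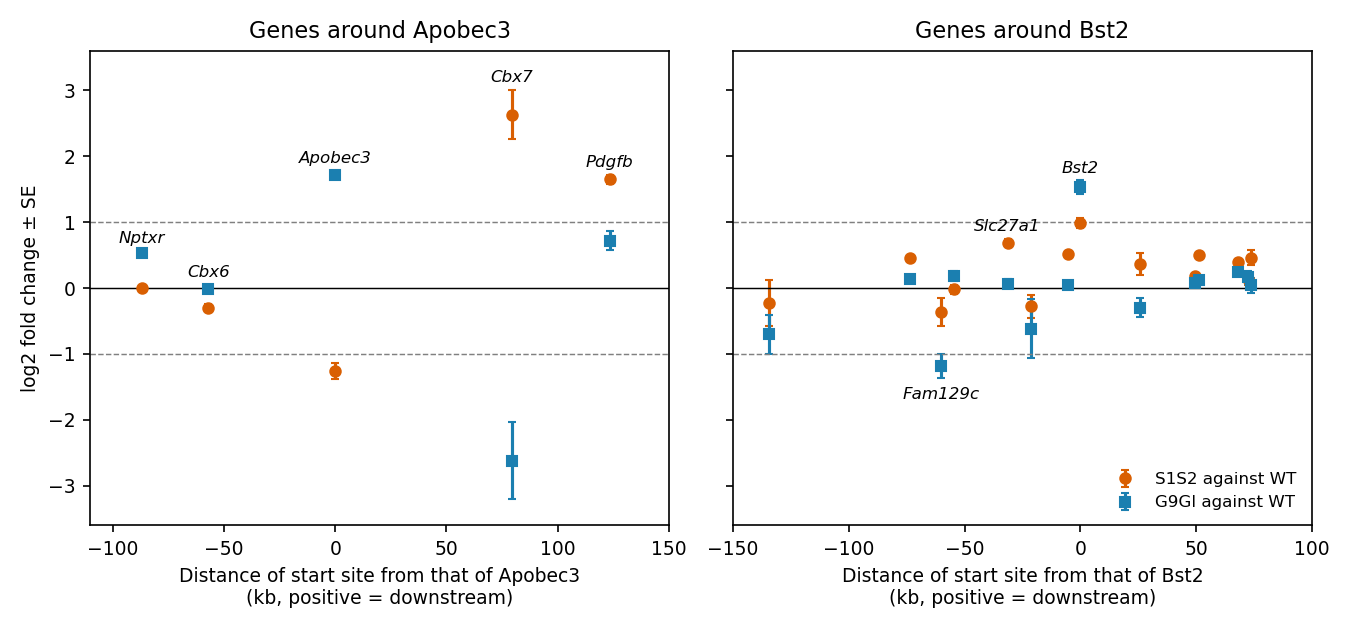
Log2 fold change against WT, with SE, of the tested genes with any part within 100 kb of Apobec3 (left) or Bst2 (right), against the distance of their start sites in kb, positive in the direction of transcription of Apobec3 or Bst2. Circles are S1S2, squares are G9Gl, and dashed lines mark a fold change of 2. Cbx7 lies opposite to Apobec3 in both mutants, and the neighbours of Bst2 have a median of 0.36 in S1S2 and 0.07 in G9Gl.

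Bst2 encodes tetherin, a membrane protein that holds budding virus particles on the cell surface. It lies on chromosome 8 from base 71534255 to 71537456 on the minus strand. Its WT libraries were close together, at 34.1, 34.5 and 34.7 CPM. The S1S2 libraries had 65.4, 64.4 and 75.1 CPM, and the G9Gl libraries had 113, 96.6 and 88.5 CPM. Every library of either mutant was above every WT library, and all G9Gl libraries were above all S1S2 libraries.

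The mean of Bst2 was 34.4 ± 0.299 CPM (SD, n = 3) in WT, 68.3 ± 5.90 in S1S2 and 99.4 ± 12.5 in G9Gl. In G9Gl cells this was a 2.89-fold rise (log2 1.53, SE 0.10, adjusted p = 2.88e-11). In S1S2 cells the level was 1.98-fold that of WT (log2 0.99, SE 0.07, adjusted p = 1.588e-08), so the gene rose but stayed just under the fold limit. Without S1S2 replicate 1 the log2 value was 1.02, and without S1S2 replicate 2 it was 1.03, and Bst2 was then called. G9Gl cells had 1.46-fold more Bst2 than S1S2 cells (log2 0.54, SE 0.13, adjusted p = 9.058e-06).

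Within 100 kb of Bst2, 13 other genes were tested. In S1S2 cells the median log2 fold change of the 13 genes was 0.36. By adjusted p 6 of them rose and none fell, beside 20.3% and 17.6% of all genes. None was called, where 4.66% of all genes were called higher and 4.34% lower. The genes that rose included Slc27a1 (0.68), which encodes a fatty acid transporter, and Mvb12a (0.51), a gene of the vesicle sorting machinery. The median over 787 genes of chromosome 8 was 0.15 in S1S2 and 0.01 in G9Gl. In G9Gl cells the 13 neighbours had a median of 0.07. By adjusted p 1 rose (Dda1, 0.25) and 1 fell (Fam129c, -1.18), beside 19.0% and 16.0% of all genes. Fam129c was also called, where 3.40% of all genes were called lower. With the chromosome medians removed, Bst2 was at 0.83 (adjusted p = 1.475e-07) in S1S2 and at 1.52 (adjusted p = 2.995e-11) in G9Gl. The part of the neighbourhood in the S1S2 value of Bst2 was not tested.

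Adar encodes the adenosine deaminase that converts adenosine to inosine in double-stranded RNA, by which self RNA is kept from the RNA sensor encoded by Ifih1. It lies on chromosome 3 from base 89715022 to 89753446 on the plus strand. WT libraries had 55.8, 54.0 and 57.6 CPM, and S1S2 libraries had 58.6, 58.6 and 57.5 CPM, with overlap between the groups. G9Gl libraries had 101, 95.1 and 93.9 CPM and lay apart from both.

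The mean of Adar was 55.8 ± 1.80 CPM (SD, n = 3) in WT, 58.2 ± 0.645 in S1S2 and 96.7 ± 3.87 in G9Gl. The G9Gl level was 1.73-fold that of WT (log2 0.79, SE 0.04, adjusted p = 2.078e-10) and thus rose without reaching the fold limit. In S1S2 the log2 value was 0.06 (SE 0.03, adjusted p = 0.3095). The difference between the mutants passed the test as well (log2 0.73, SE 0.03, adjusted p = 5.381e-10). Of the exon bases of Adar, 16.8% are covered by Chrnb2 on the opposite strand, a gene with at most 7 counts in any library. The gene-level counts cannot separate the interferon-inducible long isoform of Adar from the constitutive short one.

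**Figure D3:**
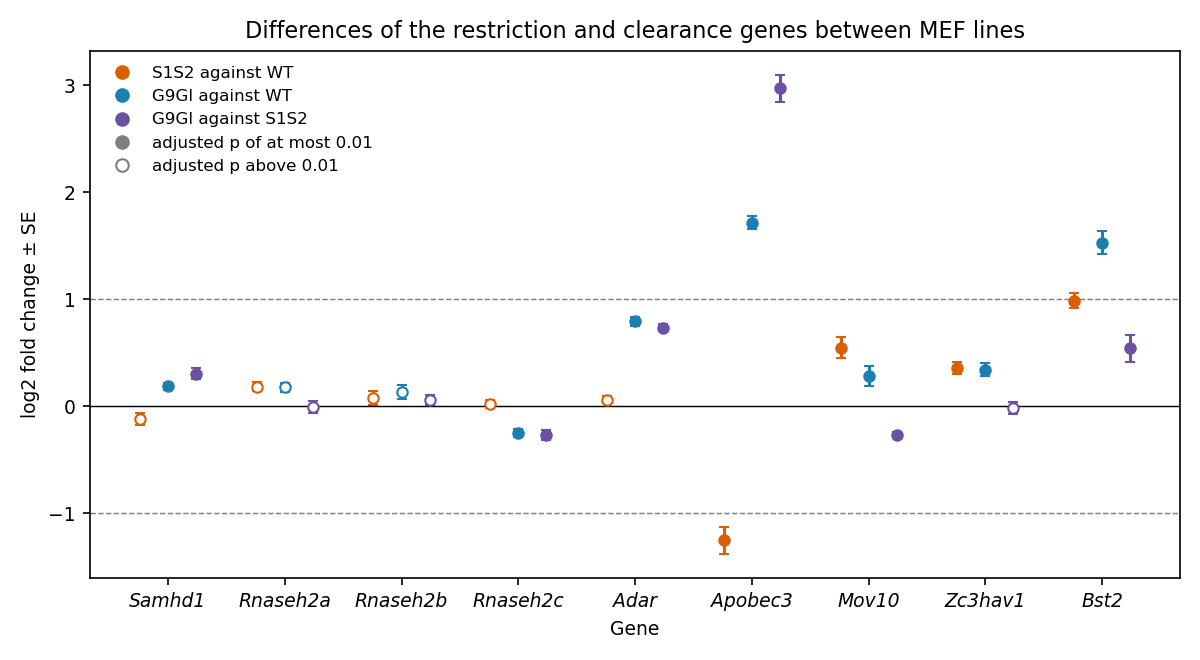
Log2 fold change with SE of the 9 tested genes in S1S2 against WT (orange), G9Gl against WT (blue) and G9Gl against S1S2 (purple). Filled points have an adjusted p of at most 0.01 in the edgeR test, and dashed lines mark a fold change of 2. Apobec3 is below the lower line in S1S2 and above the upper line in G9Gl, and Bst2 in S1S2 lies on the upper line at 0.99.

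Mov10 and Zc3hav1 encode proteins that act on RNA. Mov10 is an RNA helicase that restrains retrotransposition of LINE elements and retroviral replication, and its gene lies on chromosome 3 from base 104794836 to 104818563 on the minus strand. Mov10 had 62.8, 64.7 and 52.5 CPM in WT, 85.4, 87.5 and 89.7 CPM in S1S2, and 71.4, 73.8 and 73.1 CPM in G9Gl. The groups did not overlap, with S1S2 highest. It rose in S1S2 (log2 0.55, SE 0.10, adjusted p = 1.372e-06) and in G9Gl (log2 0.28, SE 0.09, adjusted p = 0.001286). It was lower in G9Gl than in S1S2 (log2 -0.27, SE 0.03, adjusted p = 0.0015), the reverse of the order of Apobec3, Bst2 and Adar. This last difference was -0.14 (adjusted p = 0.07447) with the chromosome medians removed.

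Zc3hav1 encodes the zinc finger antiviral protein, which binds RNA rich in CpG and directs it to decay. The gene lies on chromosome 6 from base 38305286 to 38354603 on the minus strand. It had 133, 132 and 144 CPM in WT, 171, 169.9 and 184 CPM in S1S2, and 184, 165 and 168 CPM in G9Gl. Both mutants lay above WT and overlapped each other. The rise was 0.36 (SE 0.05, adjusted p = 1.774e-05) in S1S2 and 0.34 (SE 0.06, adjusted p = 2.884e-05) in G9Gl on the log2 scale. Between the mutants the value was -0.02 (SE 0.06, adjusted p = 0.7974). Of the cofactors of this protein, Trim25, a ubiquitin ligase, rose by 0.50 (adjusted p = 3.339e-05) in S1S2 and by 0.95 (adjusted p = 1.111e-08) in G9Gl, and Khnyn, a nuclease, had -0.23 (adjusted p = 0.003366) and -0.30 (adjusted p = 0.0003285). Both cofactors were selected after their values had been seen.

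Samhd1 encodes the enzyme that hydrolyses deoxynucleotides and so limits reverse transcription. It lies on chromosome 2 from base 157097533 to 157135265 on the minus strand. The libraries had 146, 142 and 137 CPM in WT, 128, 139 and 123 CPM in S1S2, and 157, 161 and 164 CPM in G9Gl. The S1S2 and WT groups overlapped, and all G9Gl libraries were above the others. The log2 fold change was -0.12 (SE 0.06, adjusted p = 0.04498) in S1S2. It was 0.18 (SE 0.03, adjusted p = 0.003796) in G9Gl and 0.30 (SE 0.05, adjusted p = 3.399e-05) between the mutants. The rise in G9Gl against WT missed the limit without WT replicate 3 (adjusted p = 0.0107), without G9Gl replicate 2 (0.0126), without G9Gl replicate 3 (0.0181) and with library totals as the only scaling (0.0123).

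The supply side of the deoxynucleotide pool, 9 genes from ribonucleotide reductase to thymidylate synthase, held no called gene in any of the 3 comparisons, where between 3.40% and 7.97% of all genes were called in a direction, so 0 of 9 is near the background. By adjusted p alone, 1 rose and 2 fell in S1S2, and 1 rose and 1 fell in G9Gl. Over all genes, 20.3% rose and 17.6% fell in S1S2, and 19.0% rose and 16.0% fell in G9Gl. Median log2 fold changes of the 9 genes were -0.07 and 0.06. The 12 proliferation genes, such as Mki67 and Mcm2, also had no call, but 8 of them fell by adjusted p in G9Gl, against 16.0% of all genes, with a median of -0.20. In S1S2 2 rose and 1 fell, with a median of 0.01.

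RNase H2 removes ribonucleotides from DNA and resolves RNA-DNA hybrids. Rnaseh2a encodes its catalytic subunit, and Rnaseh2b and Rnaseh2c encode the accessory subunits. Rnaseh2a lies on chromosome 8 from base 84956610 to 84969767 on the minus strand. It had 40.7, 40.2 and 39.5 CPM in WT, 43.3, 45.7 and 47.5 CPM in S1S2, and 47.9, 43.4 and 44.7 CPM in G9Gl. The libraries of both mutants lay above WT, but the log2 fold changes of 0.18 (SE 0.04, adjusted p = 0.01095) in S1S2 and 0.18 (SE 0.04, adjusted p = 0.01305) in G9Gl narrowly missed the limit of the adjusted p. Without S1S2 replicate 1 the adjusted p in S1S2 was 0.00928. With the chromosome medians removed the S1S2 value was 0.03 (adjusted p = 0.7185). Of its exon bases, 9.66% are shared with Gm49661 on the same strand and 5.04% with Prdx2 on the opposite strand.

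Rnaseh2b lies on chromosome 14 from base 62292589 to 62372992 on the plus strand. The libraries ranged from 43.9 to 50.4 CPM in WT, from 47.8 to 52.0 CPM in S1S2 and from 50.2 to 53.9 CPM in G9Gl, and no pair of groups was separate. The log2 values were 0.08 (SE 0.07, adjusted p = 0.2938) in S1S2 and 0.13 (SE 0.07, adjusted p = 0.071) in G9Gl. With the chromosome medians removed the G9Gl value was 0.21 (adjusted p = 0.007428).

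Rnaseh2c lies on chromosome 19 from base 5601873 to 5607019 on the plus strand. It had 32.6, 34.0 and 32.9 CPM in WT, 34.3, 34.4 and 32.1 CPM in S1S2, and 28.0, 26.5 and 28.9 CPM in G9Gl. All G9Gl libraries were below the other 6, which overlapped. The gene fell in G9Gl (log2 -0.25, SE 0.04, adjusted p = 0.001247), and the log2 value in S1S2 was 0.02 (SE 0.04, adjusted p = 0.7981). Between the mutants the difference was -0.27 (SE 0.05, adjusted p = 0.0006222).

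Chromosome 19 as a whole moved between the lines, with a median log2 fold change over 487 genes of 0.34 in S1S2, -0.17 in G9Gl and -0.52 in G9Gl against S1S2. With these medians removed, Rnaseh2c was at -0.32 (adjusted p = 0.0001756) in S1S2, at -0.09 (adjusted p = 0.2278) in G9Gl and at 0.23 (adjusted p = 0.002905) between the mutants. Relative to its chromosome, the gene was thus low in S1S2 and its fall in G9Gl did not pass the test. Kat5 on the opposite strand covers 24.8% of the exon bases of Rnaseh2c, and it had 0.21 in S1S2 (adjusted p = 0.004629) against -0.24 (adjusted p = 0.002064) for G9Gl on the log2 scale. The part of the chromosome and of Kat5 in the values of Rnaseh2c was not tested.

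Within a library, the CPM of Rnaseh2a divided by that of Rnaseh2c was 1.25, 1.18 and 1.20 in WT, 1.26, 1.33 and 1.48 in S1S2, and 1.71, 1.63 and 1.55 in G9Gl. For Rnaseh2b to Rnaseh2c it averaged 1.43 ± 0.122 (SD, n = 3) in WT, 1.48 ± 0.118 in S1S2 and 1.86 ± 0.0625 in G9Gl. Rnaseh2a to Rnaseh2b was at 0.853 ± 0.0655, 0.914 ± 0.00704 and 0.878 ± 0.0665. The ratio of Rnaseh2a to Rnaseh2c was above every WT library in both mutants, that of Rnaseh2b to Rnaseh2c in G9Gl, and that of Rnaseh2a to Rnaseh2b overlapped between all groups. These ratios were not tested, include the shift of chromosome 19, and are ratios of reads, not of molecules.

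Trex1, the gene of the main cytosolic DNA exonuclease, was listed at 0 counts in all 9 libraries. It lies on chromosome 9 from base 109057933 to 109059734 on the minus strand. In the annotation used, all of its 1147 exon bases lie within exons of Atrip on the same strand, and 93.4% of its 75-base words also occur in Atrip transcripts. Reads from Trex1 could therefore hardly be told from Atrip reads. Atrip had between 62 and 156 counts in a library. The 0 of Trex1 is thus no measurement of its RNA, and no comparison was made.

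To compare levels between genes, CPM were divided by the length of the merged exons in kb. On this scale Bst2 was the highest in every line, at 38.1 in WT, 75.7 in S1S2 and 110.1 in G9Gl, followed by Zc3hav1 at 20.9, 26.8 and 26.5. Apobec3 was the lowest at 0.776, 0.323 and 2.55. Between them in WT came Rnaseh2c (19.3), Samhd1 (15.5), Rnaseh2a (11.4), Mov10 (10.7), Rnaseh2b (7.56) and Adar (6.87). In this WT order the libraries of Rnaseh2a and Mov10, and those of Rnaseh2b and Adar, overlapped, and the other neighbours did not. Adar passed Rnaseh2b in G9Gl, where it reached 11.9 against 8.28, and Mov10 passed Samhd1 in S1S2, at 15.6 against 14.2. Merged exons of genes with many transcripts, such as the 20 of Apobec3, overstate the length of the mRNA and lower this value.

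Around the 10 genes, related lists were read in the same fit. Of 11 paralogues and cofactors 6 were tested. None was called in S1S2, and Apobec1, an RNA-editing cytidine deaminase, was called higher in G9Gl (log2 1.16, adjusted p = 2.57e-05), beside 4.66% of all genes called higher and 4.34% lower in S1S2, and 6.77% and 3.40% in G9Gl. Adarb1, which encodes a second RNA adenosine deaminase, rose by 0.83 in G9Gl (adjusted p = 9.172e-10) and had -0.33 in S1S2 (adjusted p = 0.0001121), so that it was called between the mutants at 1.16. By adjusted p alone 1 of the 6 rose and 3 fell in S1S2, and 3 rose and 2 fell in G9Gl, with medians of -0.10 and 0.39. The shares of all genes were 20.3% and 17.6% in S1S2, and 19.0% and 16.0% in G9Gl.

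Of 19 other nucleases and further genes of nucleic acid clearance 16 were tested and none was called in S1S2. In G9Gl 1 was called higher, Isg20, an interferon-induced RNA exonuclease, at 10.7 CPM against 4.83 in WT (log2 1.15, SE 0.15, adjusted p = 4.823e-07). By adjusted p alone, 4 rose (all genes, 20.3%) and 2 fell (17.6%) in S1S2, and 4 rose (19.0%) and 3 fell (16.0%) in G9Gl. The medians were 0.07 and 0.11. The other 15 tested genes were called in neither mutant. Of all genes 4.66% were called higher and 4.34% lower in S1S2, and 6.77% and 3.40% in G9Gl, so these counts are near the background.

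Of 14 other restriction factors 13 were tested. The S1S2 cells had 4 called higher and 1 lower, and the G9Gl cells 5 and 1. Of all genes, 4.66% were called higher and 4.34% lower in S1S2, and 6.77% and 3.40% in G9Gl. Trim30a, a Trim family gene, had mean levels of 0.141 CPM in WT, 1.95 in S1S2 and 86.5 in G9Gl. Rsad2, which encodes viperin, had 3.75, 65.8 and 13.5 CPM, with S1S2 highest. Samd9l, a gene that restricts translation in infected cells, had 24.3, 69.3 and 6.53 CPM and so rose in S1S2 (log2 1.51, adjusted p = 1.184e-11) and fell in G9Gl (log2 -1.89, adjusted p = 5.799e-12). This is the reverse of Apobec3. Isg15, a ubiquitin-like modifier, had 5.99, 33.2 and 29.0 CPM.

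All 11 sensors and adaptors were tested, with 2 called higher and 1 lower in S1S2 and 6 higher and none lower in G9Gl. This stands beside 4.66% and 4.34% of all genes in S1S2, and 6.77% and 3.40% in G9Gl. Ifih1, the sensor of long double-stranded RNA that Adar editing restrains, had 14.1 CPM in WT, 68.8 in S1S2 and 90.0 in G9Gl. It was called in both mutants (log2 2.28 and 2.67), whereas the Adar rise passed the adjusted p in G9Gl alone, and the difference of Adar between the mutants was itself significant. Aim2, a cytosolic DNA sensor, had 3.10, 0.366 and 24.8 CPM. It was called lower in S1S2 (log2 -3.05, adjusted p = 8.777e-08) and higher in G9Gl (log2 3.00, adjusted p = 5.975e-12), the same directions as Apobec3. Zbp1 was called in both (2.28 and 2.27) and Dhx58 in G9Gl (1.81).

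The interferon signature list of 22 genes, all tested, had 13 called higher in S1S2 and 19 in G9Gl, and none lower, where 4.66% and 6.77% of all genes were called higher. Medians were 2.14 and 2.84. Oas1a, Usp18 and Ifi44 had log2 values of 3.82, 4.32 and 2.60 in S1S2 and 7.94, 6.95 and 6.42 in G9Gl. Not all 22 genes followed this order. In G9Gl against S1S2, 10 were called higher and 2 lower, beside 7.97% and 5.08% of all genes. Oas2 was at or under the floor of 3 counts in all WT libraries, and its level was at least 14.2-fold higher in the S1S2 libraries and 146-fold or more in those of G9Gl. With Oas2 at this bound the medians were 2.14 and 2.84. Among the 9 genes followed here, the medians of 0.08 and 0.28 were lower than those of the interferon list, with Mov10, Zc3hav1 and Bst2 as the genes that rose in both mutants. The difference between the lists was not tested.

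**Figure D4:**
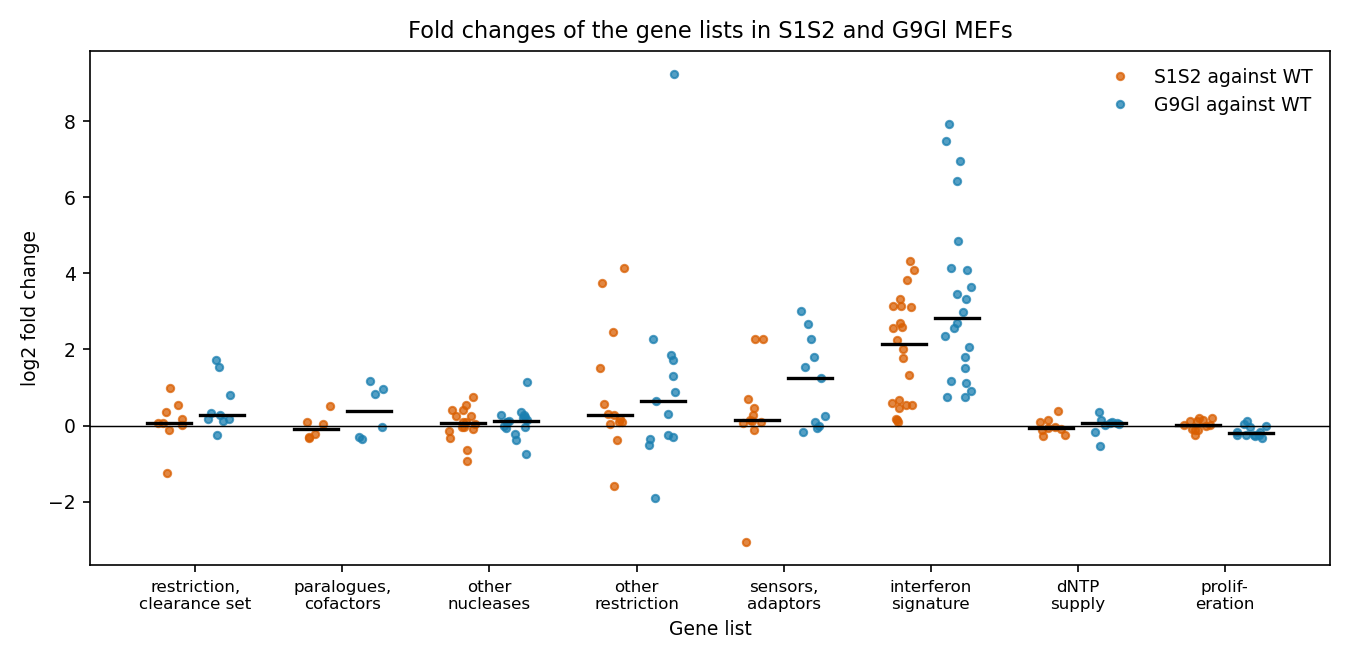
Log2 fold change of each tested gene of 8 lists in S1S2 (orange) and G9Gl (blue) against WT, with the median as a black line. The restriction and clearance genes stay between -1.26 and 1.72, while the interferon signature list has medians of 2.14 and 2.84.

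For the 3 genes with the widest range, the genes with the most similar profile were taken from 12863 genes with a mean of at least 1 CPM, by Pearson correlation of log2 CPM over the 9 libraries. These libraries form 3 groups, so the values describe the order of the genotypes and carry no p. The profile of Apobec3 was like that of Il16 (r = 0.996), a cytokine gene, with 1.72 CPM in WT, 0.481 in S1S2 and 8.19 in G9Gl. Alx1 also had a value of 0.996, at 0.362, 0 and 4.07 CPM. Its S1S2 level rests on no reads, and only its G9Gl mean was above 1 CPM. Bst2 was most like Gbp3 (0.995), a guanylate-binding protein gene, with 5.85, 25.05 and 52.9 CPM, then Chrnb1 (0.994) and Parp14 (0.993). Adar was most like B2m (0.998), the light chain of MHC class I, with 190.3, 212 and 632 CPM, then Pde5a (0.996).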

How the data were processed

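Total RNA of 9 MEF cultures, 3 per group, was sequenced as stranded paired-end libraries. Per the study's methods and the submitters' processing notes, the authors aligned the reads to GRCm38 with STAR 2.5.2b and counted them per Ensembl gene with TEtranscripts, and the deposited values are raw counts. The annotation release and the use of strand in counting are not given in the sources used here. Of 47937 identifiers 47310 matched GENCODE M21.

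Counts were filtered with filterByExpr and fitted in R 4.3.3 with the quasi-likelihood test of edgeR 4.0.16 after TMM scaling (factors 0.981 to 1.03), with all 9 libraries in 1 fit. P-values were adjusted over 15540 genes by the Benjamini-Hochberg method. The biological coefficient of variation was 5.36%. The test was checked on simulated counts. CPM use TMM-scaled totals, and SE come from log2 CPM with a prior count of 2. The spread between replicates exceeded counting noise (chi-square per degree of freedom from 2.63 to 25.1). A floor of 3 counts, which covers counting error only, corresponds to between 0.0923 and 0.141 CPM.

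The 10 genes, the gene lists and the motifs were chosen with earlier results of these data known. Named were the 10 genes, up to 4 called genes of a list with the largest fold change, and the 3 genes most alike to each of the 3 most variable genes, except genes that are not reported here. Trim25, Khnyn and the genes within 100 kb were added after their values had been seen. Alternatives were DESeq2 1.42.0, other scalings and filters, a fit of the 2 groups compared, no fold limit, the removal of chromosome medians, a replicate block, and leaving out each library.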

Additional observations from a re-analysis of the deposited data

Results flagged for a closer look

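Apobec3 was flagged because its response differed between the mutants, lower than WT in S1S2 and higher in G9Gl. The flag rests on the contrast of G9Gl against S1S2, which is no further evidence, at 2.97 on the log2 scale (SE 0.13, adjusted p = 1.448e-13, edgeR quasi-likelihood test), with 3 of 3 G9Gl libraries above 3 of 3 S1S2 libraries. The value stayed between 2.86 and 3.08 over the 14 other settings. Each mutant is 1 clone, so clone and genotype cannot be told apart.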

How the results depend on the processing

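The numbers of called genes were 1 in S1S2, 2 in G9Gl and 1 between the mutants. They changed when the fold limit was dropped, to 4, 7 and 6, and over the fits without 1 library, where S1S2 ranged from 1 to 2 because Bst2 crossed the fold limit. The same 14 settings never turned the sign of a called gene. Reversed signs were found for differences without a call. Rnaseh2a in G9Gl against S1S2 (-0.01) was 0.000452 with DESeq2, 0.00811 without filter, 0.00784 with at least 10 counts in every library, 0.140 with the chromosome medians removed, and between -0.0461 and 0.0248 with 1 library left out. Rnaseh2c in S1S2 against WT (0.02) was -0.00641 with library totals only, -0.32 with the chromosome medians removed and between -0.000585 and 0.0511 with 1 library left out. With the chromosome medians removed, Rnaseh2c in G9Gl against S1S2 was 0.23 (adjusted p = 0.002905, edgeR test) in place of -0.27 (adjusted p = 0.0006222). This difference was within the limit of the adjusted p in both directions. The same setting gave -0.0430 for Adar in S1S2 against WT and 0.009996 for Zc3hav1 in G9Gl against S1S2. The last was between -0.0655 and 0.0184 with 1 library left out. The median of all genes moved by at most 0.03 under other scalings.

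The labels number the replicates, but same-numbered libraries did not deviate together, with correlations of their deviations between -0.07 and 0.12 and 2 of 9 over 0.1. With the replicate number as a block the numbers of called genes were 1, 2 and 1, as without the block. The pairing was therefore not used. Of the 9 tested genes, depth limits Apobec3 in S1S2 most, with 56 to 94 counts a library. Low values of other named genes rest on fewer counts, such as Cbx7 in G9Gl (0 to 4), Oas2 (2 to 3), Oas1a (2 to 6), Trim30a (2 to 7) and Usp18 (3 to 10) in WT, and Aim2 in S1S2 (6 to 11).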

Other observations

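The windows around the start sites also differed in CpG content, which no comparison above used. The median over all windows was 7 CpG in 300 bases. Among the genes followed here, the count was 34 for the second start of Adar, 29 for Samhd1, 23 for Rnaseh2a and 20 for Zc3hav1, 13 for the first start of Apobec3 and 4 for its second, and 11 for Bst2. The other Adar starts had 6 and 12, Mov10 had 9 and 13, Rnaseh2c had 9, and Trex1 had 7 and 5. The GC content was 70.0% for the second Adar window, 53.7% for Bst2 and 61.0% for the first Apobec3 window.

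Dnase2a, which encodes the lysosomal DNA nuclease, was higher than WT in S1S2 and lower in G9Gl, and was selected after its values had been seen. It was at 17.8 CPM in WT, 23.7 in S1S2 and 13.8 in G9Gl, with log2 fold changes of 0.41 (adjusted p = 8.607e-05) and -0.37 (adjusted p = 0.0003256) in the edgeR test and a difference of -0.78 between the mutants (adjusted p = 4.927e-08). Dnase2a lies on chromosome 8, whose median log2 fold changes were 0.15, 0.01 and -0.14. Fen1, which encodes a flap endonuclease, had 0.24, -0.22 and -0.45 in the same comparisons, and lies on chromosome 19, whose median log2 fold changes were 0.34, -0.17 and -0.52.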
